A study of Homo sapiens with 4 samples.

Results

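Histone mRNAs were examined in RNA recovered with ORC1, a subunit of the complex that marks replication origins, from HCT116 nuclei. HCT116 is a human cell line of colorectal carcinoma. Protein-coding genes of GENCODE v44 were taken by symbol: the linker histone H1 genes, the clustered H2A, H2B, H3 and H4 genes (H2AC, H2BC, H3C and H4C), and the variant genes H2AX, H2AJ, H2AZ1, H2AZ2, H3-3A, H3-3B, MACROH2A1 and MACROH2A2. The rule uses symbols and no measured value, though it was written with earlier results of these data known, and it gave 81 genes. Of these, 47 were joined by Ensembl identifier to the 63677 genes of the count table, and 35 of the 47 were among the 14645 genes tested. The other 34, all of them clustered H2A, H2B, H3 or H4 genes, are not analysed here, because their GENCODE v44 identifiers are not those of the table, which rests on an older annotation.

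The 4 libraries came from HCT116 cells transfected for 48 h with pcDNA3.1-ORC1-3xFLAG, a plasmid that carries ORC1 with a FLAG tag. Nuclei of asynchronous cells were lysed and sonicated without crosslinking, and the lysate was precipitated with the M2 anti-FLAG antibody. RNA of the precipitate gave 2 IP libraries and RNA of the nuclear lysate gave 2 Input libraries, numbered 1 and 2 by RIP replicate. Both groups carried the plasmid beside the chromosomal ORC1 gene, and each library pools many cells. No library of a control antibody or of untransfected cells was analysed here, so RNA held by beads or antibody cannot be told apart from RNA held by ORC1-FLAG. The study describes the anti-FLAG sequencing as duplicate experiments, and p-values measure the spread between these libraries.

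Histones package DNA into nucleosomes. H2A, H2B, H3 and H4 form the core, and H1 binds the linker DNA between cores. The clustered genes are replication-dependent: their mRNAs are made in S phase, hold no introns and end in a conserved stem-loop in place of a poly(A) tail. The stem-loop-binding protein SLBP recognises that structure and carries the mRNA through 3′ end cutting, translation and decay. Variant histones are deposited outside S phase as well, and most are made from ordinary polyadenylated mRNAs. H2AX mRNA can end either way.

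By these roles 69 of the 81 genes were placed in the stem-loop class, 11 in the polyadenylated class, and H2AX was kept apart. The grouping was compared with the sequences of GENCODE v44 canonical transcripts on GRCh38. A 16-base histone stem-loop pattern, a stem that opens with GG and closes with CC around a 4-base loop, was searched on the transcript strand after the stop codon. It was found 22 to 67 bases after the stop codon in all 69 stem-loop genes and in H2AX, and in 0 of the 11 polyadenylated genes. Over all 20046 protein-coding genes, 81, or 0.404%, hold the pattern within 100 bases of the stop codon, and 11 of these 81 are outside the rule. The polyadenylation signal AATAAA stands after the stop codon in 8 of the 11 polyadenylated genes, in 2 of the 69 stem-loop genes (H2BC21 and H4C11) and in 79.6% of all protein-coding genes.

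The class was set by symbol, not by this search. Stem-loops of members of each family are shown because the class is named after them, and because the H4 genes differ from the other families in this element. Capitals mark the 16 bases of the stem-loop, and lower case the flanking bases within the transcript, written 5′ to 3′ as DNA.
H1-4: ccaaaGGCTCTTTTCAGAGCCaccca
H1-2: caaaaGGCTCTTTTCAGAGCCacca
H2AC13: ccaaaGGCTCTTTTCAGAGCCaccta
H2BC21: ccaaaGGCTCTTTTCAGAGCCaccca
H2BC5: ccaaaGGCTCTTTTAAGAGCCacgca
H3C12: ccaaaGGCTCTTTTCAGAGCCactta
H4C3: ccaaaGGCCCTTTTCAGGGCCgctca
H4C8: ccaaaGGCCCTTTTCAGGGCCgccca
H4C11: taaaaGGCCCTTTTCAGGGCCaccct
H4C16: caaaaGGCCCTTTTCAGGGCCccca
H2AX: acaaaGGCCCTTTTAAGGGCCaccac
The 16 bases of H1-4 lie at chr6:26157095-26157110 on the plus strand, those of H1-2 at chr6:26055744-26055759 on the minus strand, those of H4C3 at chr6:26104317-26104332 on the plus strand and those of H4C16 at chr12:14770724-14770739 on the minus strand (GRCh38). The 70 stem-loops took 11 forms. The form of H1-4 stands in 40 of the 70 genes, that of H4C3 in 10 genes, all of them H4, and that of H2BC5 in 9. A stem that opens with GGCCC was present in all 15 H4 genes and, of the other 55, in H2AX alone. The forms of H1-4 and H2BC5 both occur in the H1, H2A, H2B and H3 families, and each other form outside H4 stands in 1 gene.

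The IP libraries totalled 27483148 counts for replicate 1 and 20280445 for replicate 2, and the Input libraries 14677002 and 9213877. Levels are given as scaled CPM, the count relative to the library total (CPM) after TMM scaling. Of 10 epithelial markers, 8 were tested, and KRT8 was at 972 and 1081 scaled CPM in Input. LGALS4 was at 0 and VIL1 at most at 0.284 scaled CPM. Of 9 markers of other cell types, COL1A1 was at 7.89 to 26.7 scaled CPM and VWF at 0.457 to 2.39, and the other 7 were at or near 0. ORC1 itself was at 1107 and 18522 scaled CPM in IP and at 333 and 5036 in Input, so that counts of this gene were far higher in replicate 2 in both groups. Reads of the plasmid and of the chromosomal gene were not separated. The study lists the ORC1 insert as codon-optimized, and how far its reads align to the chromosomal gene was not examined.

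Of the 47 histone genes in the table, 12 did not reach the minimum count for testing, with at most 14 counts in any library (H1-1). H1-5, H1-8, H3C15, H4C14 and H4C15 had 0 counts in all 4 libraries, which allows up to 0.144 to 0.255 scaled CPM per library, counting error only. H1-3 had 1 and 2 counts in IP and 1 and 0 in Input. The others were H1-7, H2AC1, H2AC7, H2BC1 and H3C14, with at most 3 counts. Of the 35 tested, 34 reached the minimum in all 4 libraries. H3-3A passed through the Input libraries alone, with 4 and 6 counts in IP and 13 and 14 in Input.

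Comparing IP with Input asks which histone mRNAs were recovered with ORC1-FLAG above or below their level in the nuclear lysate. A gene was called when edgeR's quasi-likelihood test gave a Benjamini-Hochberg adjusted p below 0.05 over all genes tested and a log2 fold change above 1 (enriched) or below -1 (depleted). Among the 25 tested stem-loop genes, 4 were enriched and 4 depleted. All 4 depleted genes were H4 genes, and the 4 enriched were H1-4, H1-2, H2AC13 and H2BC21. Of all genes tested, 10.5% were enriched and 8.30% depleted. Among the 9 tested polyadenylated genes, edgeR called 0 enriched and 1, H2AZ1, depleted. At an unadjusted p below 0.05, 2 of the 9 were higher in IP, and DESeq2 and limma voom called 0 enriched. The IP libraries both lay above both Input libraries in 13 stem-loop and 4 polyadenylated genes, against 33.3% of all genes tested, and both lay below in 6 and 4, against 31.7%.

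The median log2 fold change was 0.62 over the 25 stem-loop genes and 0.02 over the 9 polyadenylated genes, beside 0.01 over all genes tested. In replicate 1 the median log2 ratio of IP to Input was 0.68 for stem-loop and -0.12 for polyadenylated genes. In replicate 2 the medians were 0.44 and 0.17. Each class spread widely: stem-loop genes ran from -2.86 (H4C3) to 1.80 (H1-4) and polyadenylated genes from -1.84 (H3-3A) to 0.90 (MACROH2A2). The difference of the class medians was 0.60, and it fell to 0.16 without IP replicate 1.

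**Figure D1:**
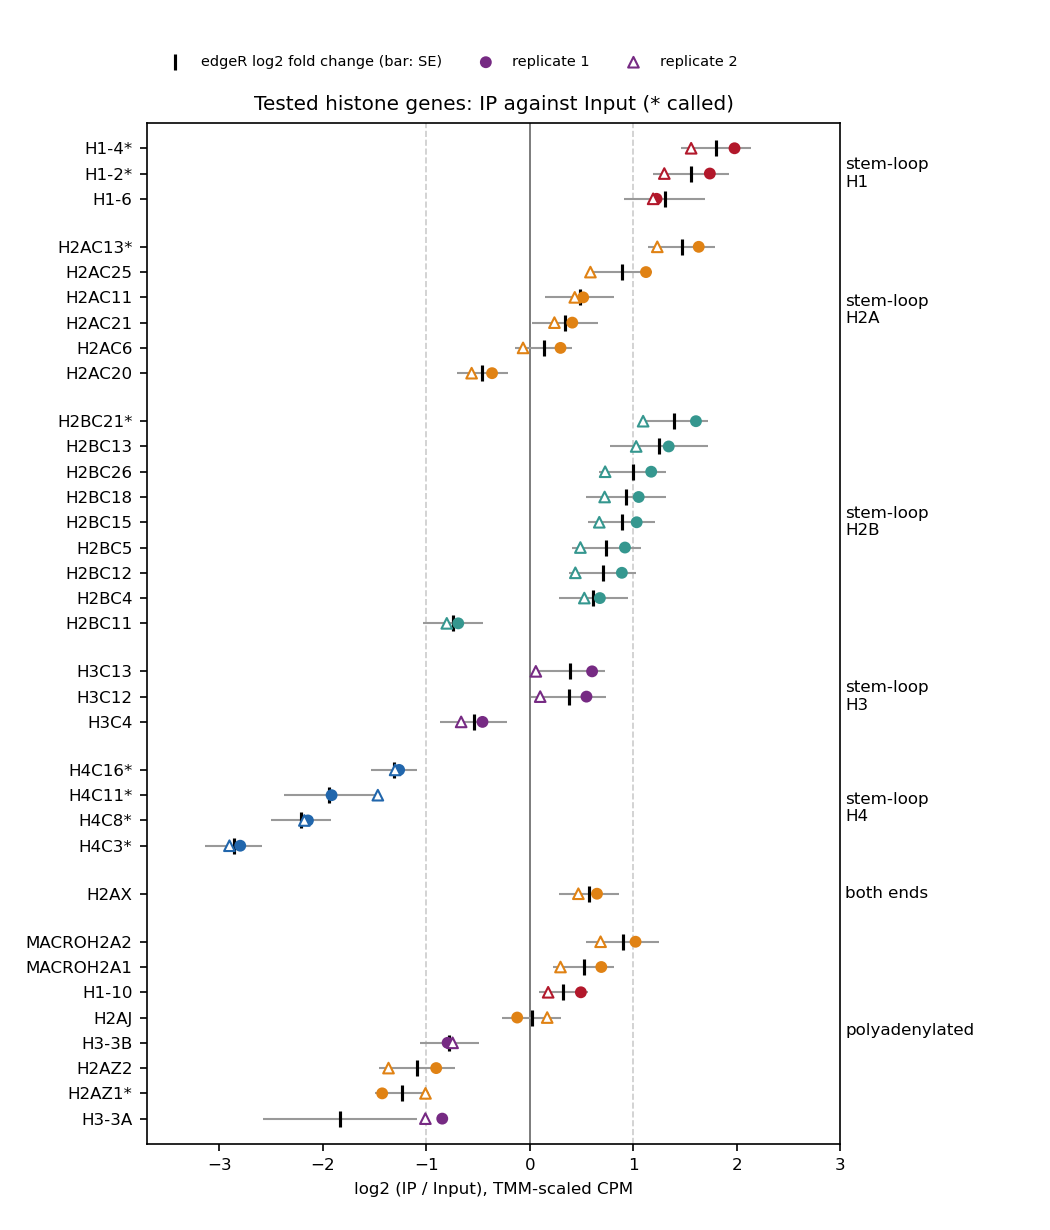
Log2 ratio of IP to Input for 34 of the tested histone genes, by class and family (rows), with replicate 1 as filled circles, replicate 2 as open triangles, the edgeR log2 fold change as a black tick and its standard error as a grey bar. The 4 H4 genes lie below -1 in both replicates, the 3 tested stem-loop H1 genes lie above 1 in both, and asterisks mark the 9 called genes.

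Linker histone H1 genes of the stem-loop class were the most enriched family, with a median log2 fold change of 1.56 over the 3 tested, of which 2 were called. H1-4, a main somatic H1 (chr6:26156329-26157115, plus strand, GRCh38), was at 4879 scaled CPM in IP replicate 1 and 3179 in IP replicate 2, against 1236 and 1077 in Input. Both IP libraries lay far above both Input libraries. edgeR called H1-4 enriched, with a log2 fold change of 1.80 ± 0.34 (SE, n = 2 libraries per group, adjusted p = 0.0159). H1-2, another somatic H1 (chr6:26055740-26056470, minus strand), was at 4535 and 2643 scaled CPM in IP and at 1356 and 1072 in Input. Again the groups did not overlap, and the log2 fold change was 1.56 ± 0.37 (SE, n = 2, adjusted p = 0.0266 by edgeR). H1-2 lost the call without IP replicate 1 (1.16), while H1-4 kept it (1.5). H1-6, the testis-specific H1, was low, at 11.4 and 6.87 scaled CPM in IP and 4.57 and 2.72 in Input. Its log2 fold change of 1.31 had an edgeR adjusted p of 0.0538, and it was called enriched with no count filter (1.26), with the replicate block (1.32), without IP replicate 2 (1.67) and without Input replicate 1 (1.78).

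H2A genes of the stem-loop class divided, with 1 of 6 enriched and a median log2 fold change of 0.41. H2AC13 (chr6:27808173-27808667, plus strand) was at 578 and 349 scaled CPM in IP and at 186 and 148 in Input, with no overlap between the groups. edgeR called H2AC13 enriched, at 1.47 ± 0.32 (SE, n = 2 libraries per group, adjusted p = 0.0225). This gene shares 63.5% of its 50-base windows with transcripts of other genes, so the assignment of its reads is uncertain. The H2A genes with the highest Input levels were not called. H2AC6 was at 488 and 341 scaled CPM in IP and 397 and 356 in Input, an overlap, with a log2 fold change of 0.13 ± 0.28 (SE, adjusted p = 0.760 by edgeR). Without IP replicate 1 or Input replicate 2 its sign changed, to -0.10 and -0.09. H2AC11 was at 600.3 and 381 scaled CPM in IP and 419 and 281 in Input, also an overlap, at 0.48 ± 0.33 (SE, adjusted p = 0.329 by edgeR).

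Of 9 H2B genes tested, 8 had both IP libraries above both Input libraries, against 33.3% of all genes tested. Those 8 had log2 fold changes from 0.62 to 1.40, and the median of the family was 0.89. The call was reached by 1 of the 9. H2BC21 (chr1:149884459-149886682, minus strand) was at 808 and 470 scaled CPM in IP and at 265 and 219 in Input, with a log2 fold change of 1.40 ± 0.33 (SE, n = 2 libraries per group, adjusted p = 0.0275 by edgeR). H2BC21 lost the call without IP replicate 1 (0.997). Its canonical transcript runs 1801 bases past the stop codon and holds AATAAA besides the stem-loop. Some other gene models were much longer than their canonical stem-loop transcripts. Exonic against transcript bases were 5002 and 456 for H2BC26, 2881 and 460 for H2BC4, 2163 and 409 for H4C8 and 2454 and 412 for H4C16. For H1-2, H1-4 and H4C3 the 2 lengths were equal. Counts per gene can therefore hold reads of other transcripts, which were not separated. H2BC5, the H2B gene with the highest Input level, was at 1094 and 650 scaled CPM in IP and 578 and 463 in Input, at 0.74 ± 0.33 (SE, adjusted p = 0.147 by edgeR). H2BC4 followed, at 695 and 439 scaled CPM in IP and 434 and 304 in Input, with 0.62 ± 0.33 (SE, adjusted p = 0.215 by edgeR).

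The exception in the H2B family was H2BC11, at 188 and 132 scaled CPM in IP and 303 and 231 in Input, with a log2 fold change of -0.74 (edgeR adjusted p = 0.103). It was called depleted without Input replicate 2 (-1.08) and with library size alone (-1.35). H2BC13 had 1.25 (edgeR adjusted p = 0.0982) and was called enriched with DESeq2 (1.27), with no count filter (1.19), with the replicate block (1.20), without IP replicate 2 (1.79) and without Input replicate 1 (1.83). H2A and H2B genes often lie side by side on opposite strands, and the values of such neighbours were close in some cases and apart in others. H2BC21 (1.40) and H2AC20 (-0.46) are neighbours on chromosome 1, as are H2AC11 (0.48) and H2BC11 (-0.74) on chromosome 6. H2AC13 (1.47) and H2BC13 (1.25) on chromosome 6 and H2AC25 (0.90) and H2BC26 (0.995) on chromosome 1 lay closer together. These neighbours were chosen after their values were seen, and no test of their differences was run.

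Of 3 stem-loop H3 genes tested, 0 were called, and IP and Input overlapped in all 3. H3C12 was at 367 and 193 scaled CPM in IP and 251 and 180 in Input, with a log2 fold change of 0.38 ± 0.36 (SE, adjusted p = 0.486 by edgeR). It changed sign without IP replicate 1 (-0.12). In GENCODE v44, same-strand annotation of H2AC17 covers 40.3% of the exonic bases of H3C12. H3C4 was at 149.7 and 90.2 scaled CPM in IP and 206 and 143 in Input, at -0.54 ± 0.33 (SE, adjusted p = 0.265 by edgeR). In GENCODE v44 a second gene model on the strand of H3C4 covers 96.6% of its exonic bases. Whether the counted annotation holds these overlapping models was not checked, so the counts of H3C4 and H3C12 are uncertain. H3C13 lay at 0.39, and at -0.10 without IP replicate 1. At an unadjusted p below 0.05 edgeR found 0 of the 3, and DESeq2 and limma voom also called 0.

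H4 genes were the opposite extreme. All 4 tested were depleted, with a median log2 fold change of -2.07, and in each both IP libraries lay below both Input libraries. Of all genes tested, 8.30% were depleted and 31.7% had both IP libraries below both Input libraries. H4C3 (chr6:26103933-26104337, plus strand), with the highest level of the tested H4 genes, was at 49.9 and 38.1 scaled CPM in IP and at 350 and 288 in Input. edgeR called H4C3 depleted, at -2.86 ± 0.28 (SE, n = 2 libraries per group, adjusted p = 0.0105). H4C8 (chr6:26277609-26285638, minus strand) was at 12.9 and 8.92 scaled CPM in IP and 58.6 and 42.1 in Input, with -2.21 ± 0.29 (SE, adjusted p = 0.0105 by edgeR). H4C16 (chr12:14767999-14771131, minus strand), which lies outside the histone clusters, was at 17.4 and 15.1 scaled CPM in IP and 42.5 and 38.0 in Input. Its log2 fold change was -1.31 ± 0.22 (SE, adjusted p = 0.0132 by edgeR). H4C3, H4C8 and H4C16 share 0% of their 50-base windows with transcripts of other genes and were called in all of the alternative fits.

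H4C11 (chr6:27824092-27824480, plus strand) was the lowest of the H4 genes, at 3.12 and 1.99 scaled CPM in IP and 13.2 and 6.38 in Input. It had a log2 fold change of -1.94 ± 0.44 (SE, adjusted p = 0.0249 by edgeR) and lost the call without Input replicate 1 (-1.28). Its coding sequence is identical to that of H4C12, which is not analysed here, and 92.1% of its 50-base windows stand in transcripts of other genes. Since 9 of the 15 H4 genes of the rule were not joined to the table, the family is described by 4 genes with reads enough to test.

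**Figure D2:**
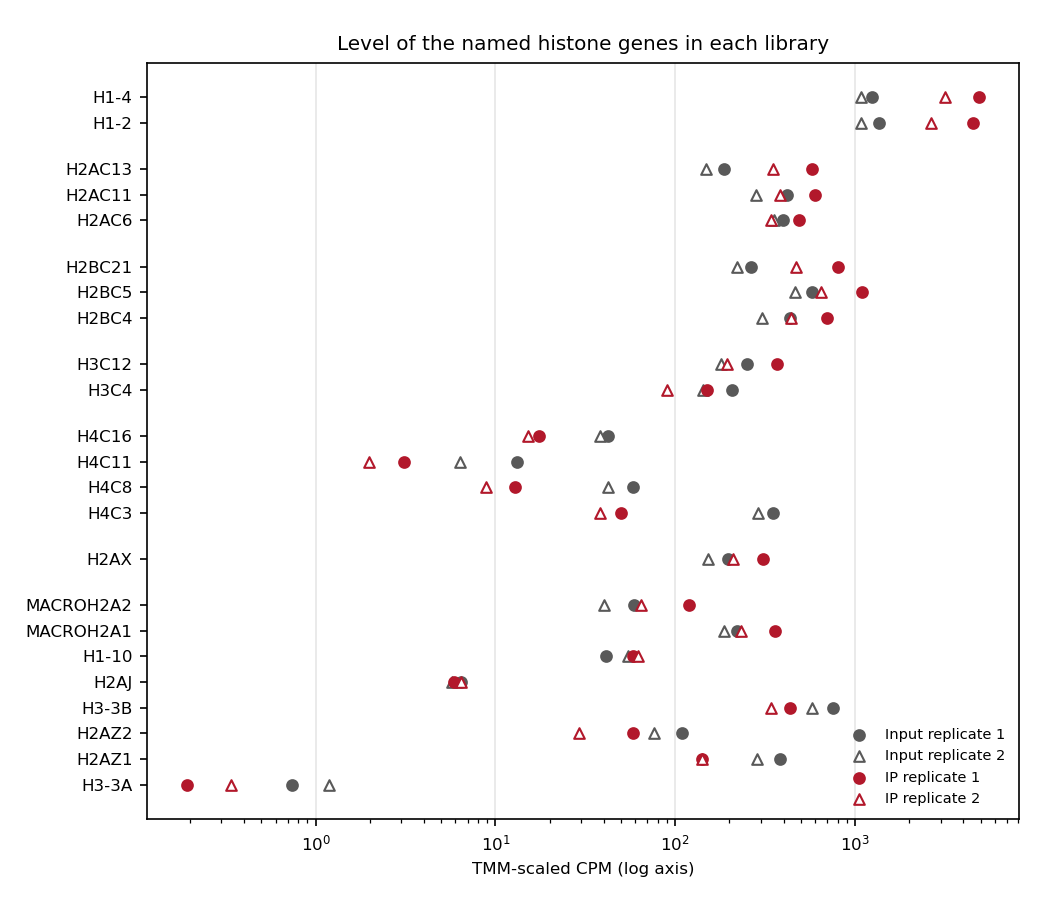
TMM-scaled CPM (log axis) of 23 histone genes in each of the 4 libraries, with Input in grey, IP in red, replicate 1 as filled circles and replicate 2 as open triangles. H1-4 and H1-2 are the highest in every library and higher in IP, and the H4 genes are lower in IP, H4C3 falling from 350 and 288 in Input to 49.9 and 38.1.

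Because each ratio of IP to Input depends on the scaling between libraries, genes were also compared within a library, where scaling cancels. H1-4 counts were 97.9 and 83.4 times those of H4C3 in the IP libraries and 3.53 and 3.74 times in the Input libraries. The ratio thus rose 27.7-fold in replicate 1 and 22.3-fold in replicate 2. H1-2 rose 23.5- and 18.6-fold against H4C3, H2BC5 13.3- and 10.6-fold, H2AC11 10.05- and 10.2-fold, and H3C12 10.3- and 8.12-fold. Core histone mRNAs of the same nuclei were thus recovered unequally, with H4C3 below the others in both replicates. H4C3, the reference in each ratio, had the lowest log2 fold change of all tested members, and H1-4 had the highest. The size of these ratios therefore reflects that choice of genes, made with their values known. Such a ratio shows unequal change, not which of the genes changed.

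Per kilobase of the canonical transcript, H1-2 and H1-4 had the highest Input levels of the 35 genes, at 1855 and 1466 scaled CPM per kilobase for H1-2 and 1571 and 1369 for H1-4. H4C3 was at 864 and 712 in Input and 123 and 94.1 in IP on that scale. H2AC11 had 851 and 571 in Input, close to H4C3, and 1218 and 773 in IP. The 2 genes were thus near each other in the lysate and far apart in the precipitate.

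The make-up of the histone counts also differed between IP and Input. Shares sum to 100%, so the share of a family can fall while its level rises. They cover only genes joined to the table, and families were joined unevenly. All 6 stem-loop H1 genes are in it, but 8 of 17 H2A, 10 of 18 H2B, 5 of 13 H3 and 6 of 15 H4 genes. The shares are therefore not those of whole families. H1-2 and H1-4 together held 50.4% and 49.3% of the counts of all 47 genes in IP replicate 1 and IP replicate 2, against 27.5% and 28.7% in Input. Stem-loop H4 genes held 0.445% and 0.543% in IP and 4.92% and 5.0% in Input. The polyadenylated class went from 19.6% and 20.2% in Input to 8.64% and 11.4% in IP. H2B genes held 24.2% and 22.5% in IP and 25.7% and 24.5% in Input, and H2A genes 11.4% and 11.7% against 14.7% and 14.7%. In scaled CPM, stem-loop H2B genes rose from 2424 and 1833 in Input to 4525 and 2653 in IP. Stem-loop H2A genes rose from 1387 and 1104 to 2131 and 1381. The polyadenylated class was at 1845 and 1513 in Input and 1615 and 1341 in IP. All 47 genes together made up 1.42% and 1.03% of IP counts and 1.12% and 0.956% of Input counts.

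**Figure D3:**
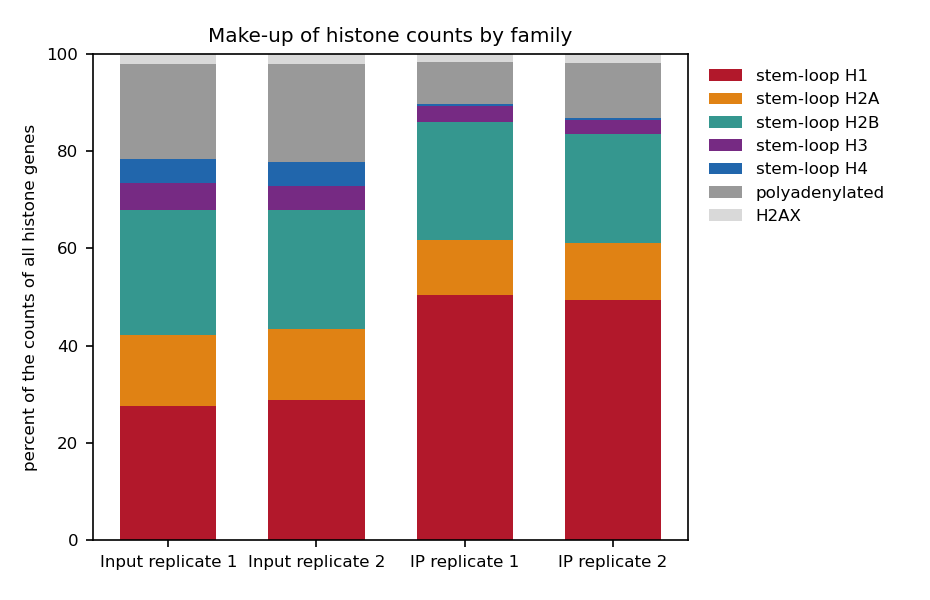
Share of the counts of the 47 histone genes in the table (percent, stacked to 100) held by each stem-loop family, the polyadenylated genes and H2AX in each of the 4 libraries. H1 rises from 27.6% and 28.7% in Input to 50.4% and 49.4% in IP, and H4 falls from 4.92% and 5.0% to 0.445% and 0.543%. The table holds all 6 stem-loop H1 genes but 6 of the 15 H4 genes, so shares are not those of whole families.

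The called gene of the polyadenylated class was H2AZ1. This gene (chr4:99948086-99950355, minus strand) encodes the H2A.Z variant found at promoters and was at 142 and 141 scaled CPM in IP and 382 and 283 in Input. edgeR called H2AZ1 depleted, at -1.24 ± 0.26 (SE, n = 2 libraries per group, adjusted p = 0.0199), and the call was lost without IP replicate 1 (-1.20) and also when Input replicate 1 was left out (-0.97). H2AZ2, the second H2A.Z gene, was at 57.9 and 29.1 scaled CPM in IP and 109 and 75.8 in Input, with -1.09 ± 0.37 (SE, adjusted p = 0.0730 by edgeR). The groups did not overlap. H2AZ2 was called depleted with no count filter (-1.12), library size alone (-1.71), upper-quartile scaling (-1.27), the replicate block (-1.14), without IP replicate 1 (-1.63) and without Input replicate 2 (-1.48). With the block, which takes up the shared replicate number, 13.4% of all genes tested were enriched and 13.4% depleted.

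The replacement histone H3.3 comes from H3-3A and H3-3B. H3-3B (chr17:75776434-75785893, minus strand) was at 437 and 341 scaled CPM in IP and 758 and 573 in Input, with no overlap and a log2 fold change of -0.78 ± 0.28 (SE, adjusted p = 0.0908 by edgeR). It was called depleted without Input replicate 2 (-1.11) and with library size alone (-1.38). H3-3A was listed at 0.192 and 0.341 scaled CPM in IP and 0.743 and 1.19 in Input. At these few counts its log2 fold change of -1.84 ± 0.74 was not called (SE, adjusted p = 0.116 by edgeR), and it was called depleted with the replicate block (-1.84). As 72.7% of the 50-base windows of H3-3A stand in transcripts of other genes, the assignment of its reads is uncertain.

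Other polyadenylated genes lay near or above 0. H1-10, a linker histone, was at 58.5 and 61.9 scaled CPM in IP and 41.4 and 54.6 in Input, at 0.32 ± 0.24 (SE, adjusted p = 0.353 by edgeR). The macroH2A genes encode H2A variants with a large extra domain found on silent chromatin. MACROH2A2 was at 120 and 64.6 scaled CPM in IP and 58.7 and 40.0 in Input, at 0.90 ± 0.35 (SE, adjusted p = 0.107 by edgeR). It was called enriched in the fit that left out IP replicate 2 (1.32) and in that without Input replicate 1 (1.24). MACROH2A1 was at 358 and 231 scaled CPM in IP and 221 and 188 in Input, at 0.52 ± 0.29 (SE, adjusted p = 0.236 by edgeR).

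H2AJ was low in all 4 libraries, at 5.90 and 6.48 scaled CPM in IP and 6.46 and 5.70 in Input, which overlapped, and its log2 fold change of 0.02 ± 0.29 (SE, adjusted p = 0.969 by edgeR) changed sign without Input replicate 2 (-0.21). H2AX, the variant phosphorylated at DNA breaks, was at 308 and 211 scaled CPM in IP and 196 and 152 in Input. IP lay above Input in both replicates, but the log2 fold change of 0.57 ± 0.29 (SE, adjusted p = 0.191 by edgeR) was not called. With H2AX counted in the stem-loop class, the median of the class was 0.59.

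Histone coding sequences are short, from 297 to 1119 bases, and across the 12542 protein-coding genes tested the log2 fold change followed coding length (Spearman rho = 0.589, across genes, which are not independent replicates). Short genes are therefore the closest background. The 1823 other tested genes with a coding sequence of at most 660 bases, the longest of a tested stem-loop gene, had a median log2 fold change of -0.74, with 28 enriched and 550 depleted. Stem-loop histone genes had a median of 0.62, with 4 and 4 of 25. H1-4, at 1.80, lay above the highest of the 1823, TMIE at 1.71, and H4C3 at -2.86 lay within their range, which went down to -3.54. The limit of 660 bases is the coding length of H1-4 itself, while the median of the 1823 is 492 bases. H1-4 was thus set beside genes no longer than itself, and it was picked as the highest member. In replicate 1 the median log2 ratio of the short genes was -0.69 and in replicate 2 -0.61, against 0.68 and 0.44 in stem-loop genes.

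Within the stem-loop class length ran alongside family. H4 has the shortest coding sequence, at 312 bases in the tested genes, and H1 the longest, at 624 to 660. Spearman rho of log2 fold change with coding length was 0.48 over the 25 stem-loop genes and 0.10 over the 21 that are not H4. H2A, H2B and H3 genes, of 381 to 411 bases, had log2 fold changes from -0.74 to 1.47, a wide range over a narrow span of lengths. Without the H4 genes, an alternative chosen after seeing the data, the median of the class was 0.74. These correlations are descriptions over genes that share libraries and families.

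**Figure D4:**
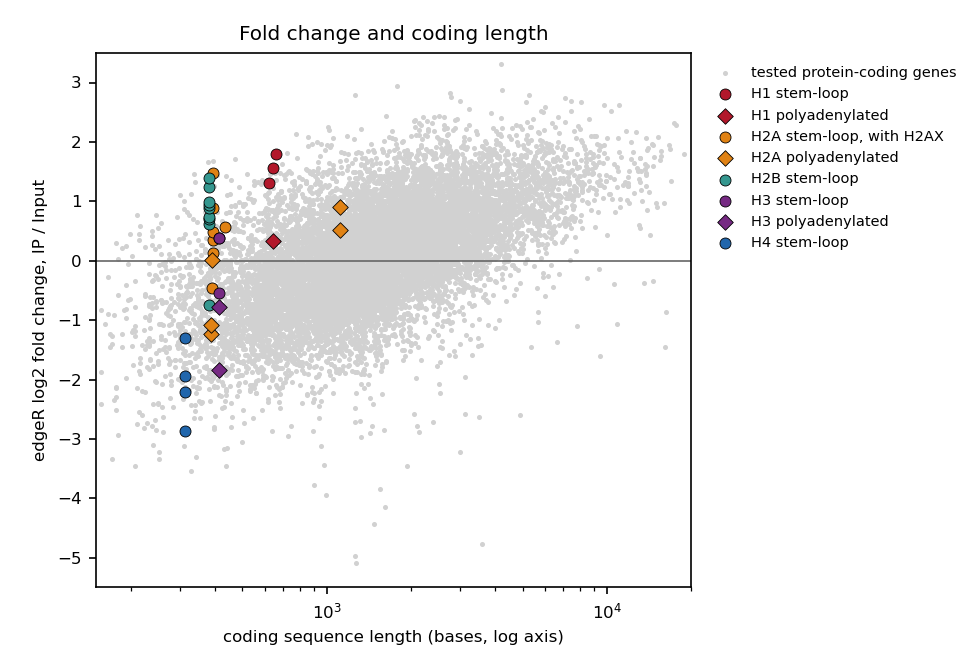
edgeR log2 fold change of IP to Input against coding sequence length in bases (log axis) for 12542 tested protein-coding genes (grey), with histone genes coloured by family, stem-loop genes and H2AX as circles and polyadenylated genes as diamonds. Most H2B circles and all 3 H1 circles sit above the bulk of genes of like length, whose median was -0.74 up to 660 bases, and the H4 circles lie between -2.86 and -1.31.

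Tandem GAA triplets, a feature the study examined in ORC1-bound RNAs, were counted in the same transcripts. The study reports this type of sequence in most RNAs of its ORC1-FLAG RIP-seq, by a motif search unlike the exact string used here. GAAGAAGAA, searched on the transcript strand, stands in 4 of the 35 tested members (H1-4, H1-10, MACROH2A1 and MACROH2A2). It stands in 14.8% of the tested protein-coding genes, and transcript length was not matched in this comparison. All 4 copies lie in the coding sequence. They are shown with their surroundings, with the repeat in capitals, because H1-4 is the most enriched histone gene and holds such a repeat, while H1-2 holds none.
H1-4: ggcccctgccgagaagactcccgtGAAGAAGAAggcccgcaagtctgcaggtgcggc
H1-10: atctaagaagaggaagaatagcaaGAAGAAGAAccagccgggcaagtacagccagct
MACROH2A1: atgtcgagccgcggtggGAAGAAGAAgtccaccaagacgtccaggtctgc
MACROH2A2: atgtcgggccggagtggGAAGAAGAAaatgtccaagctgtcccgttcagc
The stretches lie at chr6:26156426-26156482 (H1-4, plus strand), chr3:129315751-129315807 (H1-10, minus strand), chr5:135389044-135389093 (MACROH2A1, minus strand) and chr10:70075659-70075708 (MACROH2A2, plus strand) on GRCh38. Of the 4 genes, H1-4 was called, and the others had log2 fold changes of 0.32 (H1-10), 0.52 (MACROH2A1) and 0.90 (MACROH2A2). Single GAA triplets per kilobase of coding sequence had a median of 36.4 in stem-loop H1 genes, 23.6 in H2B, 14.6 in H3, 11.2 in H4 and 7.63 in H2A. Their Spearman rho with log2 fold change was 0.49 over the 25 stem-loop genes, 0.44 without H4 and 0.249 over tested protein-coding genes. H1 and H2B, the families with the most triplets, had the highest medians of fold change, but H2A, with fewer than H4, lay above it.

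Stem-loop mRNAs were lower in replicate 2 than in replicate 1 in both kinds of library. In Input all 25 were lower, by a median log2 difference of -0.36, and in IP all 25 were lower, by -0.70. Over all genes tested these medians were 0.00 and -0.04. Polyadenylated histone genes were lower in replicate 2 in 6 of 9 cases in Input (median -0.24) and had a median of -0.01 in IP. Among 17 S phase genes, such as those of the MCM helicase, 16 were lower in Input (median -0.29) and 17 in IP (-0.51). Fewer cells in S phase and less of these RNAs per cell cannot be told apart in bulk libraries, and the part of this shift, or of the higher ORC1 level in replicate 2, in the ratios of IP to Input was not tested. The S phase genes had a median log2 fold change of 0.54, with 5 of 17 enriched, beside 10.5% of all genes tested. All 5 were MCM helicase genes (MCM2, MCM3, MCM4, MCM6 and MCM7). No other S phase gene was called, and 4 of the 17 lay below 0, with RRM2 lowest at -0.91. The median coding length of the S phase genes was 1683 bases, against 381 in the stem-loop genes.

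Near-identical histone genes can split or lose reads in counting, and how multiply aligned reads were handled is not given in the sources used here. Of the 25 tested stem-loop genes, 13 shared under 10% of their 50-base windows with transcripts of other genes, and 12 shared 10% or more. The former had a median log2 fold change of 0.38, with 3 enriched and 3 depleted. The latter had a median of 0.72, with 1 and 1. The H1-2 and H1-4 transcripts share 0% of their windows, as do those of H4C3, H4C8 and H4C16. The windows compare transcripts of GENCODE v44, not of the annotation that was counted.

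The mRNAs of proteins that handle histones were described as well, from lists of 15 genes of histone mRNA synthesis and processing and 25 genes of histone chaperones. MCM2, enriched at 1.24, is in the chaperone list and among the S phase genes, and is counted in both. Of the 15 processing genes, 3 were enriched and 1 depleted, with a median log2 fold change of 0.51, beside 10.5% and 8.30% of all genes tested. SLBP, the stem-loop-binding protein, was at 435 and 258 scaled CPM in IP and 158 and 110 in Input, and edgeR called it enriched at 1.37 ± 0.34 (SE, adjusted p = 0.0314). CPSF3, the endonuclease that cuts histone pre-mRNA, had 1.21, and UPF1, a helicase of histone mRNA decay, had 1.18, both enriched. LSM10, a core protein of the U7 small nuclear ribonucleoprotein, was depleted at -1.27. Its partner LSM11 was not called, at -0.77 (edgeR adjusted p = 0.0842).

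NPAT, the coactivator of histone gene transcription, had a log2 fold change of 0.51 (edgeR adjusted p = 0.264), and ZNF473, which binds the U7 particle, had 0.44 (edgeR adjusted p = 0.172), and neither was called. CASP8AP2, a component of histone locus bodies, reached an edgeR adjusted p of 0.0297 but at 0.99 stayed below the fold change limit. It was called enriched with the replicate block. The processing genes thus did not move one way.

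Of the 25 chaperone genes, 13 were enriched and 2 depleted, with a median of 1.09, against the same 10.5% and 8.30% of all genes. SUPT6H (2.33) and SUPT16H (2.22), which move histones during transcription, had the highest log2 fold changes. ATRX and DAXX, which deposit H3.3 at heterochromatin, were enriched at 1.53 and 1.14 (edgeR adjusted p = 0.0132 and 0.0314). CHAF1A, the large subunit of the replication-coupled CAF-1 chaperone, was enriched at 1.26 (edgeR adjusted p = 0.0150). HIRA, which deposits H3.3 in transcribed genes, was not called at 0.25 (edgeR adjusted p = 0.595), while its partners UBN1 (1.35) and CABIN1 (1.09) were enriched. Not called either was NASP, which holds the soluble H3 and H4 pool, at 0.52 (edgeR adjusted p = 0.306).

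The small H3-H4 chaperones went the other way. ASF1A was depleted at -2.33 and ASF1B at -1.0 (edgeR adjusted p = 0.0476), the latter just past the fold change limit and no longer called with the replicate block. The median coding length of the chaperone list was 2247 bases and that of the processing list 1734, against 1434 for all protein-coding genes tested, and the part of length in these counts was not tested. Of the 40 genes of both lists, 16 were enriched and 3 depleted (all genes, 10.5% and 8.30%). These counts moved when Input replicate 2 or Input replicate 1 was left out.

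**Figure D5:**
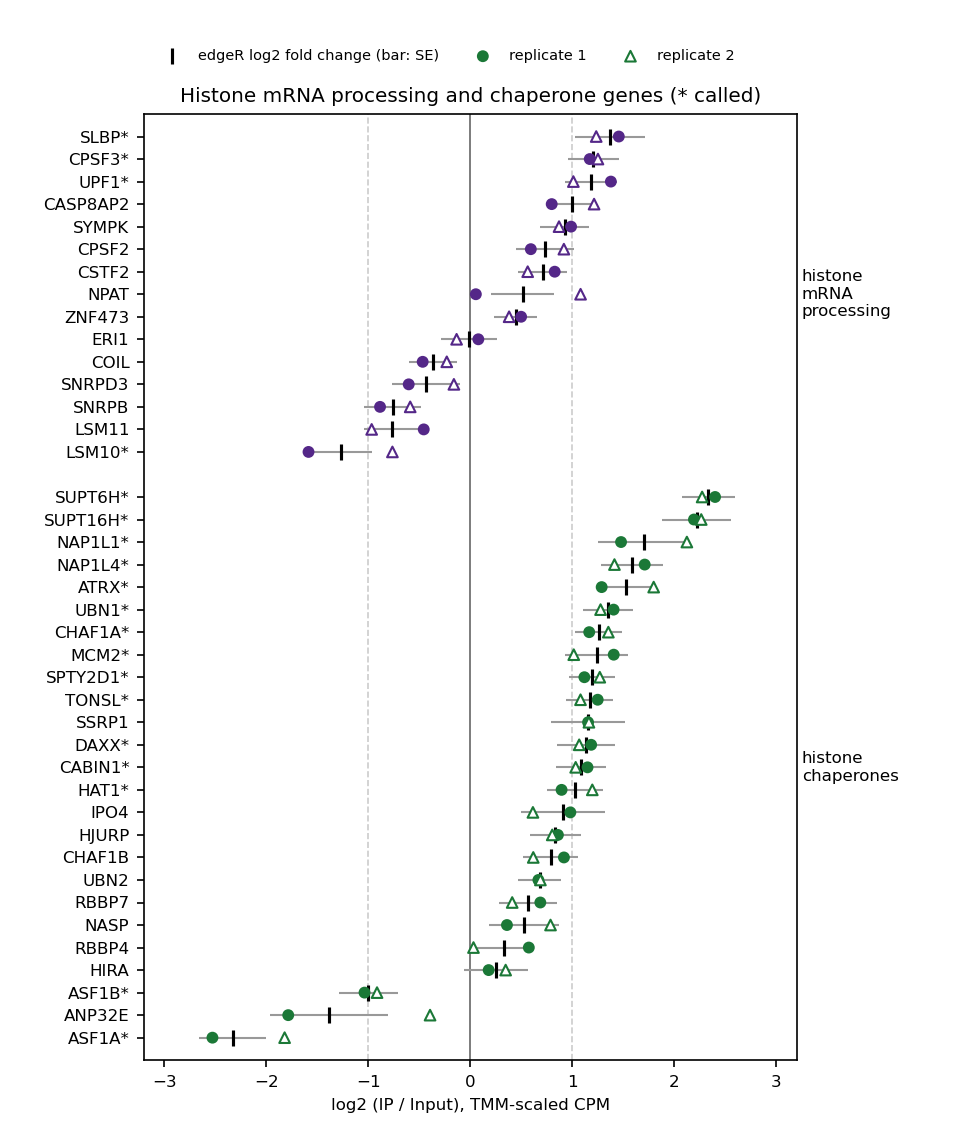
Log2 ratio of IP to Input for 15 genes of histone mRNA processing (top) and 25 histone chaperone genes (bottom), with replicate 1 as filled circles, replicate 2 as open triangles, the edgeR log2 fold change as a black tick and its standard error as a grey bar. Of the chaperones, 22 lie above 0, led by SUPT6H (2.33), and ASF1A (-2.33) lies lowest.

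Directions of the families depended on the scaling in part. The median shift over all genes was -0.60 on the log2 scale with library size alone and -0.17 with upper-quartile scaling, and the enriched share of all calls went from 55.9% to 10.4% and 41.2%. Under library size alone H1-4 stayed enriched (1.18) and the 4 H4 genes depleted (-1.91 to -3.47), H1-2, H2AC13 and H2BC21 lost the call, and the median of the stem-loop class was 0.00, still above the shifted median of all genes. Without IP replicate 2 or without Input replicate 1, 10 stem-loop genes were enriched in place of 4. The 6 added in both cases were H1-6, H2AC25, H2BC13, H2BC15, H2BC18 and H2BC26. Without IP replicate 1, 2 were enriched, H1-4 and H2AC13. DESeq2, no count filter and the replicate block each gave 6.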

How the data were processed

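RNA immunoprecipitation sequencing of 2 ORC1-FLAG IP and 2 Input libraries was analysed. The authors deposited gene-level read counts that were not normalized. Per the submitters' processing notes, the steps were Trimmomatic for trimming, STAR for alignment to hg19 (GRCh37) and featureCounts for counting. Total RNA libraries were ribosome-depleted and stranded. The annotation release, the strand setting of the counting and the treatment of multiply aligned reads are not given in the sources used here, and no molecular identifiers were used. Totals ran from 9213877 to 27483148 counts.

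Symbols, coordinates, transcripts and classes came from GENCODE v44 on GRCh38, joined by Ensembl identifier, and sequences were read from its canonical transcripts. No coordinates were converted between builds. The members, lists and tests were chosen with earlier results of these data known. Genes were filtered with filterByExpr, scaled by TMM and tested with edgeR 4.0.16 (R 4.3.3; quasi-likelihood, robust, group as the only term) over 14645 genes, with Benjamini-Hochberg adjustment. SE is the fold change divided by the root of the F statistic. Replicate ratios used scaled CPM with a pseudocount of 0.5. The code was tested on simulated data. Full statistics are given for called members, tested polyadenylated members, H2AX, the 2 genes of highest mean Input level in each stem-loop family and 11 processing and chaperone genes. The values of 1 tested member are not reported here. Other genes named as examples were chosen after their values were seen.

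Alternatives were RLE, library size and upper-quartile scaling, no count filter, DESeq2 1.42.0, limma voom (limma 3.58.1), a replicate block, leaving out each library, and other choices of members. The labels give IP and Input of a RIP replicate the same number, which pairs the libraries. Deviations from the group means of same-numbered libraries correlated across genes (Pearson r = 0.647). With 2 libraries per group the deviations of replicate 2 mirror those of replicate 1, so the 2 pairs give the same value.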

Additional observations from a re-analysis of the deposited data

How the results depend on the processing

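H4C3, H4C8, H4C16 and H1-4 were called in the same direction under every alternative fit. DESeq2 and limma voom left the calls and directions of the histone genes given in full as they were. The replicate block added H2AZ2 (-1.14) and H3-3A (-1.84) to the depleted genes and changed no other call among these, and over all genes it gave 1960 enriched and 1957 depleted. It called 3 polyadenylated genes depleted in place of 1.

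Library size alone gave 380 enriched and 3257 depleted genes, 1 stem-loop gene enriched and 7 depleted, 3 polyadenylated genes depleted, and 2 processing and chaperone genes enriched and 7 depleted. The class medians were 0.0014 (stem-loop) and -0.57 (polyadenylated). Its shift of all genes by -0.60 reversed H1-10 (-0.28), H2AJ (-0.57), MACROH2A1 (-0.10), H2AX (-0.040), H2AC6 (-0.48), H2AC11 (-0.13) and H3C12 (-0.25). Upper-quartile scaling reversed H2AJ (-0.14) and H2AC6 (-0.045), with a stem-loop median of 0.44 and 2 polyadenylated genes depleted. RLE (-0.011) and no count filter (-0.0028) reversed H2AJ, and no count filter gave 2 polyadenylated genes depleted. For members sharing under 10% of windows, chosen after seeing the data, the stem-loop median was 0.38.

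When each library was left out in turn, the stem-loop median ran from 0.23 to 0.96, with 2 to 10 genes enriched and 3 to 5 depleted, and the polyadenylated median from -0.21 to 0.15, with 0 to 1 enriched and 0 to 3 depleted. The difference of class medians ran from 0.16 to 0.96. Processing and chaperone genes gave 8 to 21 enriched and 1 to 5 depleted. H2AJ ran from -0.21 to 0.15, H2AC6 from -0.10 to 0.42 and H3C12 from -0.12 to 0.82. The causes of these changes were not tested. With 1 library left in a group, it is assumed to vary like the others. H3-3A, H4C11 and the 12 untested genes had few counts.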
